A study of Sus scrofa with 27 samples.

Results

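The nuclear genes of respiratory complexes III, IV and V were described in porcine mural granulosa cells (GCs), the follicle cells that line the antrum and supply the oocyte with metabolites and hormones. Genes were chosen by name from the symbols paired with pig Ensembl identifiers, as those starting with UQCR, UQCC, COX4 to COX8 or ATP5 and the numbered COX10 to COX19 and COA genes. Of 52 identifiers with such a symbol, 50 reached 5 counts or more on average in the 27 libraries and are the members described here, among 11384 genes tested. COX6A1 was listed at 0 in all 27 libraries, and COX6B2 had at most 2 counts in any library. The study counted only uniquely mapped reads, so the 0 of COX6A1 does not show that the gene is silent. No identifier carried the symbol ATP5F1B, ATP5F1E, ATP5PD, COX6B1 or UQCRH, so these subunits were not measured. The mitochondrially encoded COX1, COX2 and COX3 are not members.

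The sows were wild-type Large White and Norwegian Landrace crosses. The daily feed during the final 2 weeks of lactation was 6.5 kg for the 13 full-fed (FF) sows and 3.25 kg for the 14 restricted (RES) sows. All sows then had the same feeding for 2 days after weaning, until the ovaries were taken. The labels call it full feeding, whereas the study's methods give a fixed daily ration below the FF amount. Laser-captured mural GCs of the largest healthy follicle of each sow gave 1 library per sow, so that each value comes from a separate animal and from 1 follicle. Within larger groups, the study kept RES sows that lost the most body weight and FF sows that lost the least. It also reports that this follicle was smaller in RES than in FF sows. Diet, the choice of sows and follicle size cannot be told apart here. Total counts ranged from 12299220 to 16021200 in FF and from 12942198 to 18120922 in RES libraries. No pair of libraries held identical counts.

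Complex III passes electrons from ubiquinol to cytochrome c, complex IV passes them from cytochrome c to oxygen, and both pump protons across the inner mitochondrial membrane. Complex V, the ATP synthase, lets the protons back through a ring of c subunits in the membrane, and the rotation drives ATP formation in its F1 head. Each complex combines subunits made from nuclear genes with subunits encoded by mitochondrial DNA. Assembly factors insert heme, copper and the mitochondrial subunits but do not stay in the finished enzyme. The members comprised 31 structural genes, 18 assembly genes and ATP5IF1, a small inhibitor of the ATP synthase. By complex, 13 belonged to complex III, 24 to complex IV and 13 to complex V.

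The promoters were read first, because the factors NRF1, GABPA (an ETS factor) and YY1 are known regulators of nuclear respiratory genes. RefSeq models of Sscrofa11.1 were found for 46 of the 50 members, of which 45 were protein-coding. In the 300 bases from 250 before to 50 after each gene start, both strands were searched for GCGCANGCG (NRF1-type), CCGGAAG (ETS-type) and ATGGCGG (YY1-type). The NRF1-type letters were present in 15 of 45 member promoters (33.3%), against 8.53% of 19556 promoters of protein-coding genes. The ETS-type letters were present in 16 (35.6%, against 11% of all) and the YY1-type letters in 3 (6.67%, against 4.52%). At least one of the 3 was present in 19 of 31 structural promoters (61.3%) and 8 of 13 assembly promoters (61.5%), against 20.8% of all. A match describes letters only and not a bound site. Shown here are 4 promoters of members that were higher in RES, each on its gene's strand from 5′ to 3′ and with the matches in capitals. The matches of ATP5ME include overlapping NRF1-type letters that read on both strands, besides a separate NRF1-type and an ETS-type match. COX17 holds an NRF1-type, COX8A a pair of ETS-type and ATP5MC1 a YY1-type match.
ATP5ME (chr8:113477-113776, minus strand): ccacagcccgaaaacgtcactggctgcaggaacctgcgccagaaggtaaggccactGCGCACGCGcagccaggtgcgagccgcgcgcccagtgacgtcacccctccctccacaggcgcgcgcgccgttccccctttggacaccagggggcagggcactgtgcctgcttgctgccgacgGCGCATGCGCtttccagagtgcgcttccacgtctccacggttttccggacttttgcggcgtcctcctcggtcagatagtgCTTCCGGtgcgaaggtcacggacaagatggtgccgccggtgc
COX17 (chr13:140584036-140584335, plus strand): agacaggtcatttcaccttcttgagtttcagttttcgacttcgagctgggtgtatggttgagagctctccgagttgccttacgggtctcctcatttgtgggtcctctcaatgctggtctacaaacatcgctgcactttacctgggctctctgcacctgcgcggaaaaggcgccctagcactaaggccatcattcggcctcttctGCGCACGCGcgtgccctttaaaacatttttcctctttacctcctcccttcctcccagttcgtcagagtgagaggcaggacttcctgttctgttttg
COX8A (chr2:8103264-8103563, minus strand): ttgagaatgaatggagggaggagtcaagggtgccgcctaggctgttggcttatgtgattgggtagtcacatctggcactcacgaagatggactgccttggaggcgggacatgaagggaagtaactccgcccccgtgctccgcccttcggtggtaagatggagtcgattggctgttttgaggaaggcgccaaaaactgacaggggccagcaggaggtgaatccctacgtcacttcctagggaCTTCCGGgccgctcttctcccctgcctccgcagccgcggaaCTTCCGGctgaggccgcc
ATP5MC1 (chr12:25110290-25110589, plus strand): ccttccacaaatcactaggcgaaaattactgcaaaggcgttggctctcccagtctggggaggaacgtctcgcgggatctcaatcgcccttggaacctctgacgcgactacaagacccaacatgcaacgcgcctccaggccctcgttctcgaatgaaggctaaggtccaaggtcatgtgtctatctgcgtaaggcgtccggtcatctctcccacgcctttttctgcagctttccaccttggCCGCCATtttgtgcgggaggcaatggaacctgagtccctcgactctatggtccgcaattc
Among the other called members, COX14 and ATP5MC3 each held 1 ETS-type match, ATP5MC2 and COA3 held no match in this window, and UQCC2 had no RefSeq match by name.

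Of the 50 members, 9 were higher in RES GCs and 0 were lower (edgeR's quasi-likelihood test, adjusted p under 0.05). The 9 were 3 c subunit genes and ATP5ME of complex V, COX8A, COA3, COX14 and COX17 of complex IV, and UQCC2 of complex III. At an unadjusted p under 0.05, 21 members were higher (42%, against 15.7% of all genes) and 1, COX15, was lower, which DESeq2 did not call either. The share called higher was 18%, against 8.29% of all genes tested, and the share called lower was 0, against 5.85%. In either direction, 14.1% of all genes were called. The log2 fold change was above 0 in 42 members and its median over the 50 was 0.23, whereas it was above 0 in 47.3% of all genes, with a median of -0.02. Counts measure RNA relative to the library, and in bulk samples fewer cells of a type and less RNA per cell cannot be told apart.

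**Figure D1:**
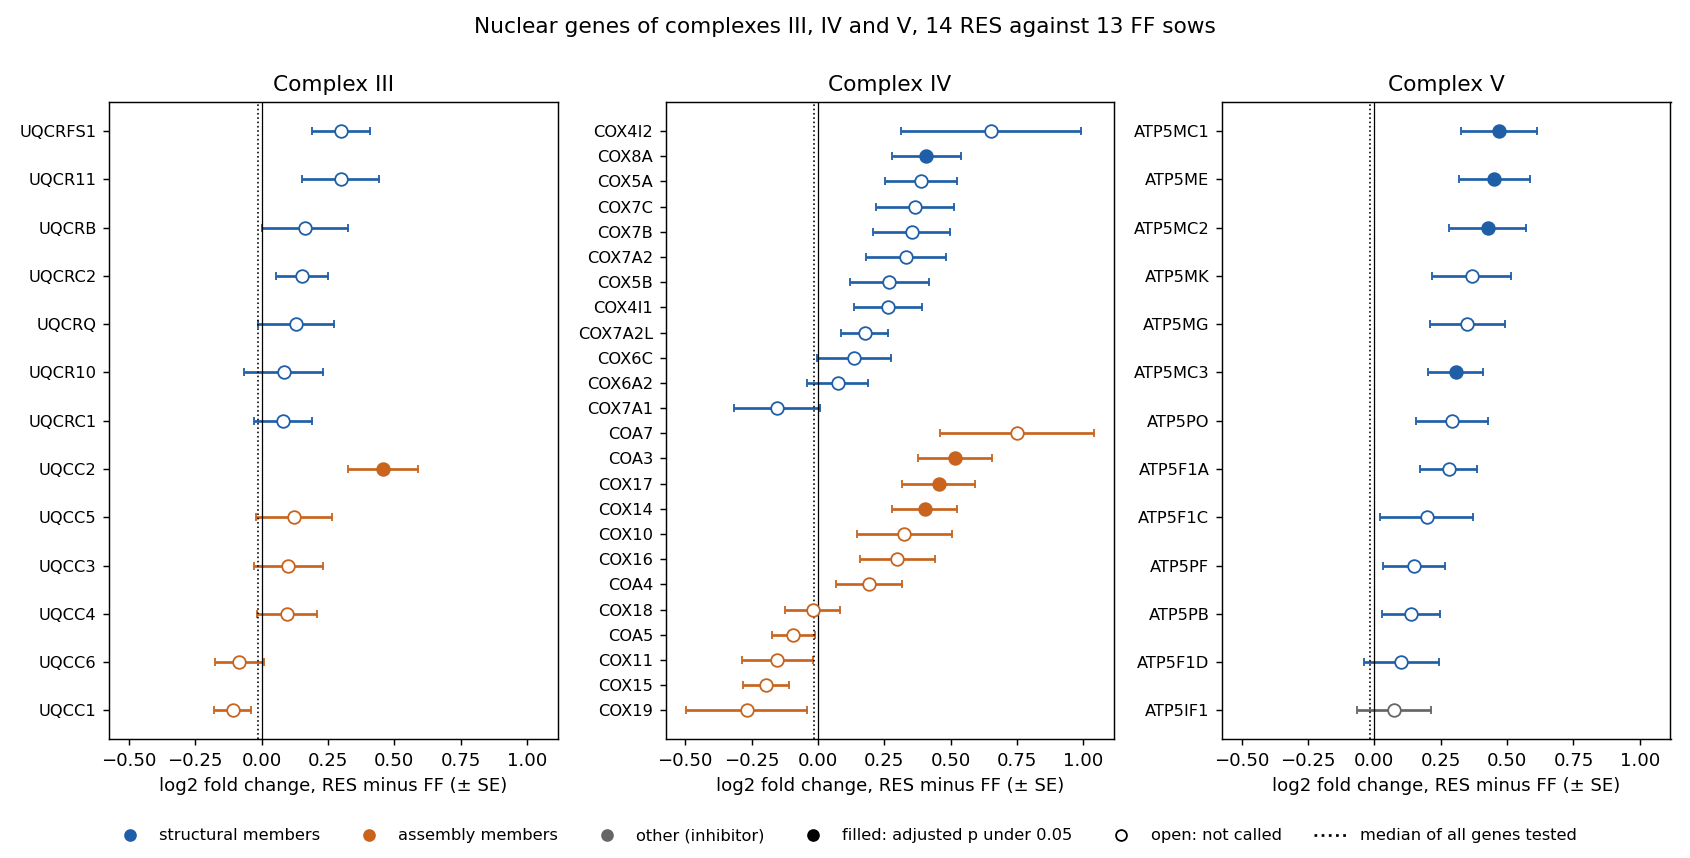
The log2 fold change (RES minus FF, ± SE) of each of the 50 members is plotted by complex, with structural members in blue, assembly members in orange and the inhibitor in grey. Filled points mark the 9 called members, all to the right of 0, and the dotted line marks the median of all genes tested, -0.02.

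In complex V, 4 of 13 members were called higher (30.8%, against 8.29% of all genes). The order of the complexes by share called was not stable: without RES sow 3, 1 member was called in complex V, 3 in complex IV and 1 in complex III, and in the upper read quality group described later 0, 3 and 1 were called. All 13 had a log2 fold change above 0, from 0.07 for ATP5IF1 to 0.47 for ATP5MC1, with a median of 0.29. The 3 called c subunit genes encode near-identical mature proteins that form the proton-carrying ring, and differ mainly in the peptide that directs them to mitochondria.

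ATP5MC1 ranged from 166 to 452 normalized counts in FF sows (median 362) and from 329.7 to 994 in RES sows (median 490.04). The groups overlapped, but 8 of 14 RES sows lay above the highest FF sow, and 12 above the FF median. Its log2 fold change was 0.47 ± 0.14 (SE, adjusted p = 0.027). A stretch of its transcript of 565 bases has a copy elsewhere in the genome at 96.3% identity, so that reads could be shared with that copy. ATP5MC2 ranged from 634 to 2335 in FF (median 1544) and from 1193 to 2844 in RES (median 2258.5), and 7 RES sows exceeded every FF sow. Its log2 fold change was 0.43 ± 0.15 (adjusted p = 0.046). ATP5MC3, the most abundant of the 3, ranged from 1283 to 3142 in FF (median 2698) and from 2359.9 to 4061 in RES (median 3391). There, 9 RES sows lay above the highest FF sow, and the log2 fold change was 0.31 ± 0.10 (adjusted p = 0.045). The calls of ATP5MC2 and ATP5MC3 lie near the threshold: with each sow left out in turn they remained in 10 and 11 of the 27 fits, with the adjusted p reaching 0.082 and 0.080.

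Among the membrane subunits outside the ring, ATP5ME (subunit e, needed for dimers of the enzyme) ranged from 352 to 814 in FF (median 542) and from 410.3 to 1307 in RES (median 712). The groups overlapped, with 5 RES sows above the highest FF sow and 11 above the FF median. The log2 fold change was 0.45 ± 0.13 (adjusted p = 0.023). ATP5MK and ATP5MG, 2 further small membrane subunits, had log2 fold changes of 0.37 ± 0.15 and 0.35 ± 0.14, with adjusted p of 0.093 and 0.092. None of the 3 F1 members or the 3 stalk members was called by edgeR or DESeq2, with 2 at an unadjusted p under 0.05. The F1 subunits ATP5F1B and ATP5F1E and the stalk subunit ATP5PD were not measured. ATP5F1A, the alpha subunit, came nearest, at 0.28 ± 0.11 (adjusted p = 0.077), with a range of 1512 to 4403 in FF and 3293 to 5608 in RES. ATP5PO, ATP5PF and ATP5PB of the peripheral stalk, which holds the F1 head still, stood at 0.29, 0.15 and 0.14. ATP5F1C, the gamma subunit of the rotating shaft, had 0.20 ± 0.17 (adjusted p = 0.48). ATP5F1D, the delta subunit, differed least among the structural members of the complex (0.10 ± 0.14, adjusted p = 0.67). The inhibitor ATP5IF1 ranged from 122 to 531 normalized counts in FF sows (median 373) and, in RES sows, from 278 to 589 (median 388), and the log2 fold change was 0.07 ± 0.14 (95% interval -0.20 to 0.35, adjusted p = 0.77).

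In complex IV, 4 of 24 members were called higher (16.7%, against 8.29% of all genes), 1 structural and 3 assembly. The median log2 fold change was 0.28, and 18 of 24 were above 0. COX8A, the ubiquitous form of the smallest subunit, ranged from 267 to 738 in FF (median 575) and from 537 to 1455 in RES (median 774). In 13 RES sows it exceeded the FF median and in 9 every FF sow, while 5 FF sows lay below every RES sow. Its log2 fold change was 0.41 ± 0.13 (adjusted p = 0.032). Without FF sows 2, 6 or 14 or RES sows 3 or 9 its adjusted p rose to between 0.051 and 0.062.

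The other structural members of complex IV stayed above the threshold in edgeR. COX5A, a matrix-facing subunit, ranged from 517 to 1795 in FF and from 1100.2 to 3023 in RES, with 9 RES sows above all FF sows (0.39 ± 0.14, adjusted p = 0.053). It passed in 9 of the 27 fits with a sow left out, and DESeq2's Wald test called it (adjusted p = 0.040). COX7C and COX7B, small membrane-spanning subunits, had 0.37 ± 0.15 and 0.35 ± 0.14 (adjusted p = 0.091 and 0.097). A stretch of COX7B of 450 bases has a copy elsewhere at 95.3% identity. COX6A2, known as the heart and skeletal muscle form, was the member of the class with the largest p (0.07 ± 0.12, adjusted p = 0.71), at 39.1 to 67.6 normalized counts in FF and 37.6 to 82.4 in RES. COX6C stood at 0.14 ± 0.14 and COX5B at 0.27 ± 0.15 (adjusted p = 0.54 and 0.22).

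The called assembly genes of complex IV act at early steps. COA3 and COX14 bind newly made COX1 and link its translation to assembly, and COX17 carries copper to the enzyme. COA3 ranged from 109 to 239.7 in FF (median 181) and from 128 to 426 in RES (median 272). In 8 RES sows it lay above the highest FF sow (0.52 ± 0.14, adjusted p = 0.013). COX17 ranged from 132 to 342 in FF (median 229) and from 204 to 495 in RES (median 349), with 12 RES sows above the FF median and 5 FF sows below every RES sow (0.46 ± 0.14, adjusted p = 0.026). COX14 ranged from 40.97 to 88.6 in FF (median 61.2) and from 57.0 to 124 in RES (median 85.0), and 5 RES sows exceeded all FF sows (0.40 ± 0.12, adjusted p = 0.026). All 3 remained called in each of the 27 fits with a sow left out, with adjusted p of at most 0.049. In 14 other settings described later, COA3 was called in 12, COX14 in 11 and COX17 in 10. COX17 was not called with a replicate block, and had 0.26 in the upper read quality group (adjusted p = 0.28).

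Other assembly genes of complex IV gave values on both sides of 0. COA7, at 1.102 to 29.1 normalized counts in FF and 9.98 to 44.6 in RES, had the largest fold change of the members but a large error (0.75 ± 0.29, adjusted p = 0.079). COX10 and COX15, which act in turn in the synthesis of heme A, had 0.33 ± 0.18 and -0.19 ± 0.09 (adjusted p = 0.22 and 0.13). COX15 ranged from 380 to 804 in FF (median 561) and from 405 to 655 in RES (median 504). COA7, COX10 and COX19 were low, under 20 normalized counts on average in both groups. Besides COX17, the copper handlers COA4, COX11 and COX19 had 0.19, -0.15 and -0.27. COX16, which acts on COX2, had 0.30 ± 0.14 (adjusted p = 0.15), COA5 had -0.09 ± 0.08, and COX18, which inserts COX2 into the membrane, had -0.02 ± 0.10 (adjusted p = 0.92).

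In complex III, 1 of 13 members was called (7.69%), close to the 8.29% of all genes called higher. The members had a median log2 fold change of 0.12. The called gene was UQCC2, an assembly factor needed early for cytochrome b. It ranged from 83.8 to 243 in FF (median 154) and from 146 to 390.1 in RES (median 213). In 13 RES sows it exceeded the FF median, and in 4 every FF sow (0.46 ± 0.13, adjusted p = 0.020). UQCC2 remained called in each of the 27 fits with a sow left out. Its partner in the same early step, UQCC1, ranged from 281 to 435 in FF and 297 to 400.2 in RES, and had -0.11 ± 0.07 (adjusted p = 0.30). UQCC6, UQCC5 and UQCC4 had -0.08 ± 0.09, 0.12 ± 0.14 and 0.10 ± 0.11, with adjusted p from 0.58 to 0.60. UQCC3 had the largest p of the class, at 37.9 to 71.2 normalized counts in FF and 31.6 to 90.6 in RES (0.10 ± 0.13, adjusted p = 0.64).

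None of the 7 structural members of complex III was called by edgeR or DESeq2, with 1 at an unadjusted p under 0.05, although all 7 had a log2 fold change above 0. UQCRFS1, the Rieske iron-sulfur protein that accepts the electron from ubiquinol, ranged from 667 to 1552 in FF (median 1387) and from 1135 to 2011 in RES (median 1821). It came nearest to the threshold (0.30 ± 0.11, adjusted p = 0.061), and 9 RES sows lay above the highest FF sow. The small subunit UQCR11 had 0.30 ± 0.15 (adjusted p = 0.17). The core proteins UQCRC2 and UQCRC1 had 0.15 ± 0.10 and 0.08 ± 0.11 (adjusted p = 0.30 and 0.65). UQCRB had 0.16 ± 0.16 and UQCRQ 0.13 ± 0.14 (adjusted p = 0.53 and 0.58). UQCR10 had the largest p of the class, at 238 to 932 in FF and 491 to 1101 in RES (0.08 ± 0.15, adjusted p = 0.75).

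**Figure D2:**
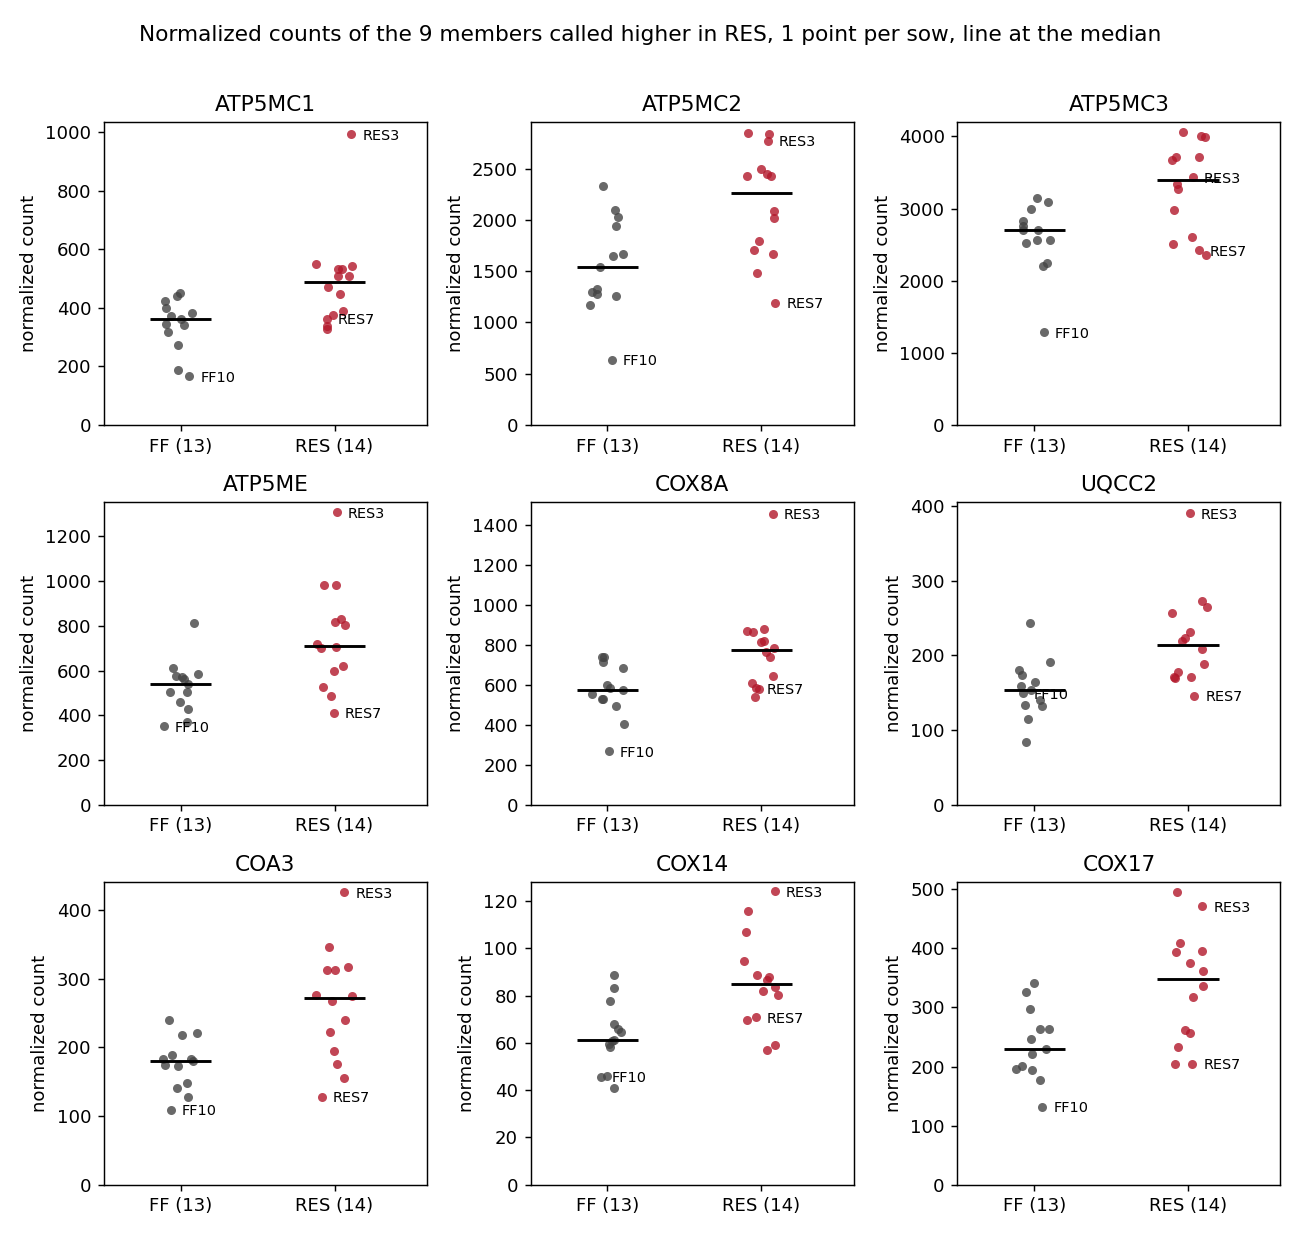
Normalized counts (linear axis from 0) are plotted for the 9 called members, 1 point per sow and a line at each group's median. FF and RES sows overlap in every panel, and FF sow 10 and RES sows 3 and 7 are marked because they lie at the edge of their group in several panels.

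Structural and assembly genes were then set side by side, with no test of their difference. Of 31 structural members, 30 had a log2 fold change above 0 (96.8%), COX7A1 being the exception, and 5 were called (16.1%). Of 18 assembly members, 11 were above 0 (61.1%) and 4 were called (22.2%). Over all genes, 47.3% were above 0 and 8.29% were called higher. The median was 0.28 for structural and 0.11 for assembly members. Structural members ranged from -0.16 for COX7A1 to 0.65 for COX4I2, and assembly members from -0.27 for COX19 to 0.75 for COA7. With a single sow left out, COX4I2 went as low as 0.34. By complex, the structural medians were 0.15 in complex III, 0.30 in complex IV and 0.30 in complex V. The assembly medians were 0.10 in complex III and 0.25 in complex IV.

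Each sow's level of a class was taken as its mean log2 CPM (counts scaled to library size) over the genes, relative to the mean of the FF sows for each gene. For structural genes of complex V the RES sows ranged from -0.10 to 0.62 (median 0.44) and the FF sows from -1.0002 to 0.44 (median 0.05), with 7 RES sows above the highest FF sow. For complex III the RES sows ranged from -0.30 to 0.50 (median 0.29) and the FF sows from -0.88 to 0.49 (median 0.03), and for complex IV the RES sows from -0.16 to 0.88 (median 0.26) and the FF sows from -0.95 to 0.51 (median 0.04). The groups overlapped in each complex. For assembly genes the RES sows ranged from -0.01 to 0.36 (median 0.17) and the FF sows from -0.25 to 0.20 (median 0.04). The spread of these means between sows of 1 group was wider for structural than for assembly genes. Over all structural members its SD was 0.36 in FF and 0.26 in RES, and over assembly members 0.12 in both. This describes the means and not single genes. FF sow 10 was lowest and RES sow 3 highest in all 4, and in FF sow 10 the members took 0.135% of all counts, against 0.262% to 0.400% in the other FF sows. The labels say that 1 FF sample, numbered 9, was left out for low RNA integrity. In the supplement the row numbered FF 10, not FF 9, has the lowest RNA integrity number, so it is uncertain which of these rows belongs to this sow. With the integrity number of row FF 10 taken for this sow as a covariate 8 members were called, all among the 9. Without FF sow 10, 12 members were called instead of 9, namely the same 9 plus COX5A and COA7, both higher, and COX15, lower (log2 fold change -0.23, adjusted p = 0.049). The median over the 50 members was then 0.17, that of structural members 0.23 and that of assembly members 0.10. Without RES sow 3, the calls fell to 5 (ATP5ME, COA3, COX14, COX17 and UQCC2), and without RES sow 7 they rose to 16, all higher and including the same 9. The calls over all genes went from 1610 to 2086 without FF sow 10, 1291 without RES sow 3 and 2350 without RES sow 7.

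**Figure D3:**
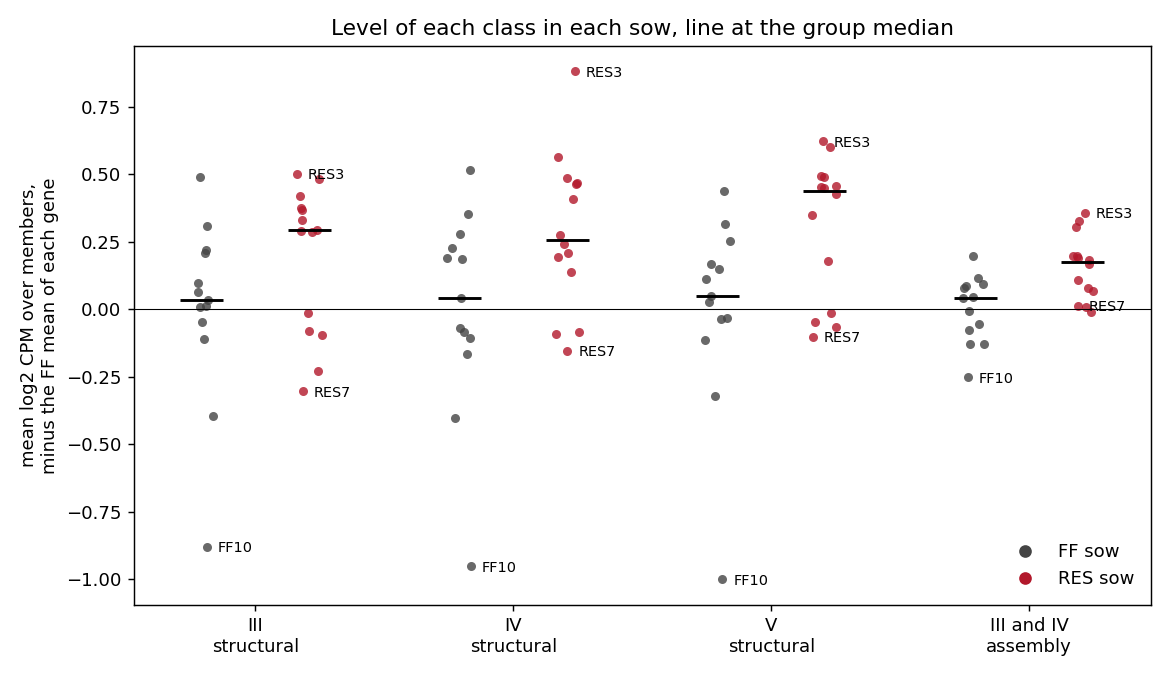
Mean log2 CPM over the structural genes of each complex and over the assembly genes are plotted for each sow, relative to the FF mean of each gene, with a line at the group median. FF sow 10 lies lowest in each class, near -1 for structural genes, and RES medians lie above FF medians in all 4.

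The libraries fell into an upper and a lower read quality group, divided by the percentage of high-quality bases. In the upper group (7 FF and 7 RES sows), 4 of 50 members were called higher (UQCC2, COA3, COA7 and COX5A). This share was below the 9.83% of all genes called higher there. The median over the members was 0.14, with 35 above 0. In the lower group (6 FF and 7 RES sows), the median was 0.34, with 43 above 0. No member was called there, and only 1 of all genes was. At an unadjusted p under 0.05, 12 of 50 members were higher in the upper group, against 17.5% of all genes, and 12 of 50 in the lower group, against 7.15% of all genes (edgeR). Structural medians were 0.21 in the upper and 0.38 in the lower group, and assembly medians 0.04 and 0.13. FF sow 10 was placed in the lower group by the supplement's row of that number. The supplement also holds a row for FF 9, a sow the labels exclude, whose quality values belong to the upper group, so this placement is uncertain. Without FF sow 10, in a fit added after the data were seen, the lower group had medians of 0.21 over all members, 0.24 for structural and 0.10 for assembly members, with 41 above 0. A test of diet by read quality group called 0 members and 0 of all genes (edgeR), with 2 of 50 members, COX7A2L and COX16, at an unadjusted p under 0.05, against 12.3% of all genes. COX7A2L had -0.06 in the upper and 0.43 in the lower group, and COX16 had -0.04 and 0.72 (adjusted p of the interaction = 0.24 and 0.25).

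Several subunits exist as alternative forms made from paralogous genes, and ratios between genes of 1 library do not depend on how libraries are scaled. RES and FF were compared over 6 log2 ratios of normalized counts with 2-sided permutation tests over sows (100000 resamples), and the p-values were adjusted over the 6. Of the 6 pairs, 5 were of paralogs and 1, COX5A and COX5B, was of different subunits. The 6 pairs were chosen after the values of their genes had been seen. COX7A1, known as the muscle form of the subunit, fell relative to COX7A2, the widely expressed form. The log2 ratio of COX7A1 to COX7A2 ranged from -3.92 to -2.84 in FF (median -3.53) and from -4.82 to -3.41 in RES (median -4.05). The groups overlapped, but 8 of 14 RES sows lay below every FF sow and 12 below the FF median. The difference was -0.52 ± 0.14 (SE, n = 13 and 14, permutation p = 0.0011, adjusted p = 0.0065). Within the read quality groups it was -0.43 (upper) and -0.65 (lower) (exact permutation p = 0.068 and 0.0035, adjusted p = 0.20 and 0.021), and -0.46 without FF sow 10 (permutation p = 0.0025). By itself, COX7A1 had a log2 fold change of -0.16 ± 0.16 (adjusted p = 0.55) and COX7A2 0.33 ± 0.15 (adjusted p = 0.14).

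The other ratios did not pass. COX7A2L, which joins complexes III and IV into supercomplexes, had a ratio to COX7A2 that was lower in RES by 0.21 ± 0.13 (permutation p = 0.094, adjusted p = 0.25). Without FF sow 10 the difference in this ratio was -0.13 (permutation p = 0.20). By itself, COX7A2L had a log2 fold change of 0.18 ± 0.09 (adjusted p = 0.18). COX4I2, the form known from lung and hypoxic cells, varied widely, from 8.94 to 114 normalized counts in FF and from 12.8 to 340.3 in RES (0.65 ± 0.34, adjusted p = 0.19). COX4I1 had 0.26 ± 0.13 (adjusted p = 0.16). The log2 ratio of COX4I2 to the ubiquitous COX4I1 was 0.42 ± 0.33 higher in RES (permutation p = 0.21). The ratios of ATP5MC1 and ATP5MC2 to ATP5MC3 differed by 0.16 ± 0.12 and 0.14 ± 0.09, and that of COX5A to COX5B by 0.09 ± 0.12. Their permutation p-values were 0.21, 0.14 and 0.48 (adjusted p = 0.25, 0.25 and 0.48). By normalized counts, ATP5MC3 made up 58.1% and ATP5MC2 34.2% of the c subunit signal in FF on average, and 55.7% and 36.1% in RES. Per kilobase of RefSeq exon, ATP5MC3 made up 83.6% ± 1.3 in FF and 82.1% ± 2.9 in RES (SD), which rests on RefSeq models of 697 bases for ATP5MC3 and 4478 bases for ATP5MC2. COX4I1 made up 89.2% ± 5.5 of the COX4 signal in FF and 86.5% ± 5.0 in RES on the same scale. ATP5MC3 and COX4I1 were thus the main forms in both groups.

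**Figure D4:**
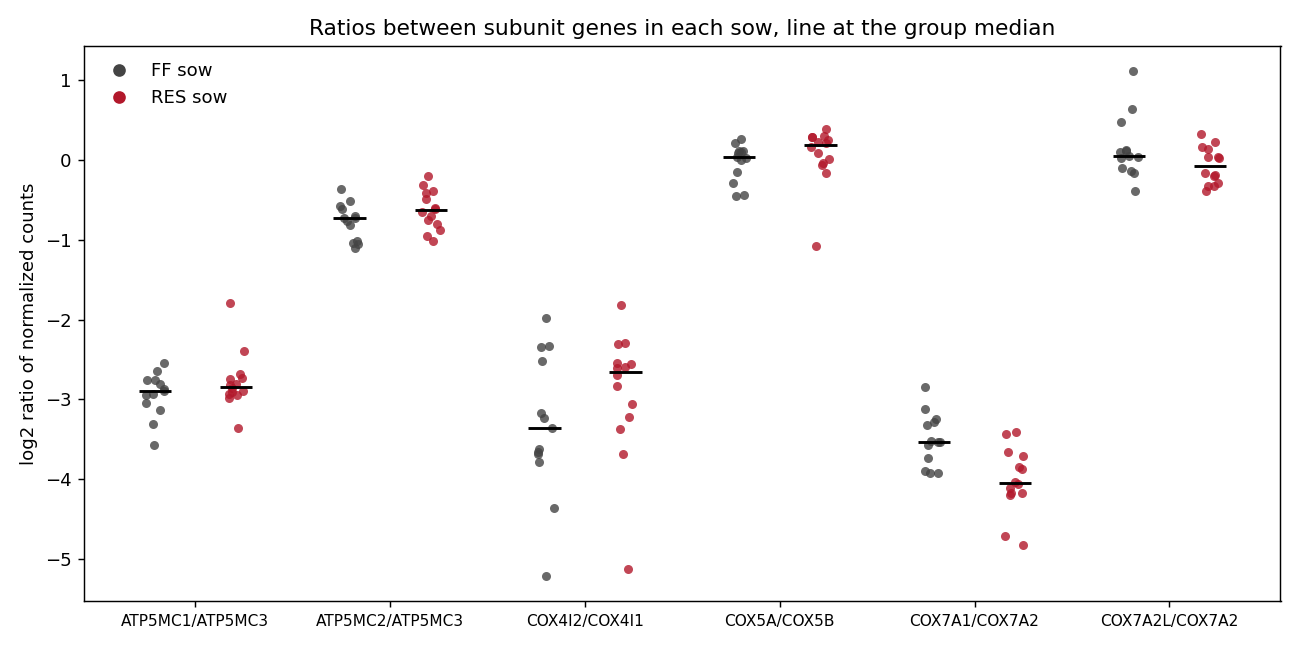
The log2 ratio of normalized counts of 6 pairs of subunit genes (5 of paralogs, and COX5A with COX5B) is plotted for each sow, with a line at the group median. The ratio of COX7A1 to COX7A2 is lower in RES (median -4.05) than in FF (median -3.53), while the other 5 pairs overlap more widely.

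Transcript length was not used in the choice by name, and 25 of the 46 members with a RefSeq model had under 1000 bases of exon. Over the 46 the median exon length was 916 bases, against 3918 bases over the 10668 genes tested that had a length (93.7% of all). Structural members had a median of 843 bases and assembly members of 1718 bases. Of 25 members under 1000 bases, 7 were called higher (28%), and their log2 fold changes had a median of 0.30. Of 21 longer members, 1 was called (4.76%), ATP5MC2, with a median of 0.12. Other genes followed the same order: 16% of the 481 non-member genes under 1000 bases were called higher, with a median of 0.15, against 7.87% of the 10141 longer ones, with a median of -0.02. The part of transcript length in the result was not tested. The share called also differed by level. At a mean count of 200 or more, 7 of 33 members (21.2%) and 13.3% of all genes were called higher, and below it 2 of 17 members (11.8%) and 4.28% of all genes.

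**Figure D5:**
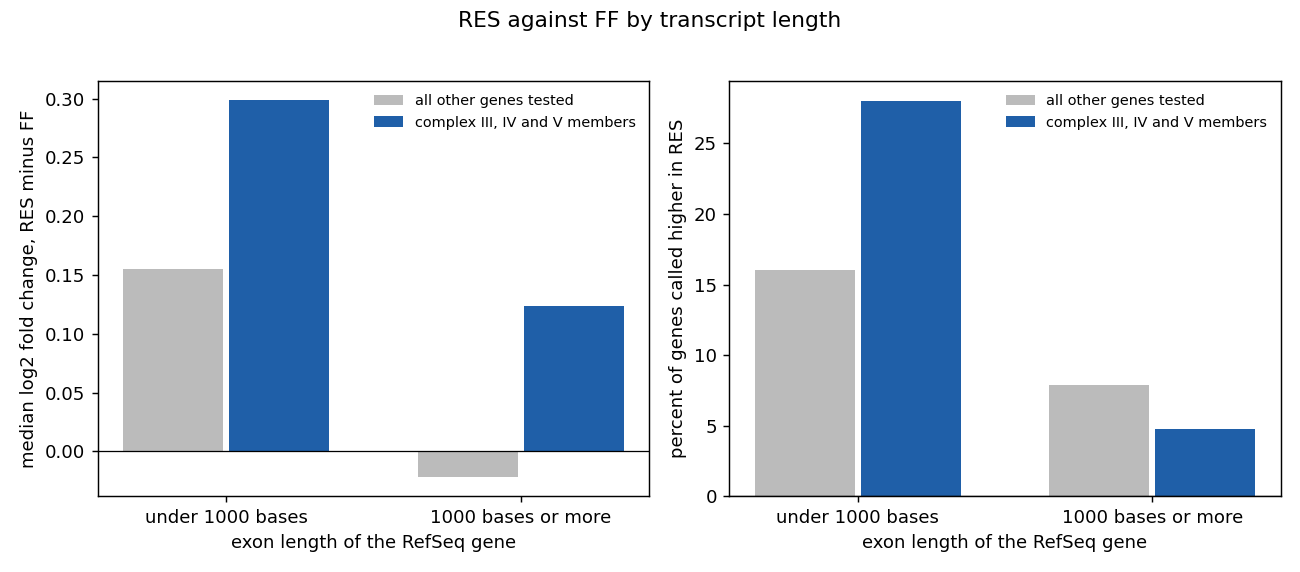
The median log2 fold change (left) and the percentage of genes called higher in RES (right) are plotted for members and for all other genes tested, split at 1000 bases of exon length. Members under 1000 bases stand at a median of 0.30 and 28% called, and other genes of that length at 0.15 and 16%.

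Other genes of the same complexes were taken from a fixed list, read against the 8.29% of all genes called higher. Cytochrome c, CYCS, which carries electrons from complex III to complex IV, ranged around medians of 1210 in FF and 1959 in RES (log2 fold change 0.53 ± 0.14, adjusted p = 0.013). HCCS, which attaches its heme, was also higher (0.42 ± 0.12, adjusted p = 0.020). Of 15 further complex IV genes tested, 4 had an unadjusted p under 0.05 in edgeR and 1 was called. HIGD2A, HIGD1A and TACO1 had 0.36, 0.43 and 0.33 (adjusted p = 0.073, 0.078 and 0.0996). The called gene was SLIRP (0.69 ± 0.15, adjusted p = 0.0033), which protects mitochondrial messenger RNA. Its partner LRPPRC had -0.02 ± 0.10. Of 4 further complex III genes, including CYC1 (0.28 ± 0.15, adjusted p = 0.21), and of 6 further complex V genes, such as the assembly factor ATPAF1 (-0.04 ± 0.06), 0 were called by edgeR or DESeq2, with 0 at an unadjusted p under 0.05. Of the 7 complex II genes tested, 1 was called, SDHB (0.40 ± 0.10, adjusted p = 0.0084), and the median was -0.02. The median log2 fold change was 0.06 for the further complex III genes, 0.06 for those of complex IV and 0.0024 for those of complex V. It was 0.23 for all members, 0.28 for structural and 0.11 for assembly members. The further genes were mostly assembly and RNA-handling factors. Among the few subunits were CYC1 and, in complex IV, NDUFA4 (0.23 ± 0.17, adjusted p = 0.40).

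CYTB, COX1, COX2, COX3 and ATP6 of the mitochondrially encoded partners were far more abundant than any member, ATP8 (medians 5298 and 7106) was not, and none of the 6 was called by edgeR or DESeq2 or had an unadjusted p under 0.05. CYTB, COX1, COX2, COX3, ATP6 and ATP8 together took 7.85% of counts in FF and 8.32% in RES on average, and their median log2 fold change was 0.10. COX1, the catalytic core of complex IV, had -0.01 ± 0.13 (adjusted p = 0.98, 95% interval -0.26 to 0.25). Among 9 regulators tested, 2 were called higher. They were TFAM, which packages and transcribes mitochondrial DNA (0.35 ± 0.10, adjusted p = 0.015), and GABPB1, the partner of GABPA (0.28 ± 0.08, adjusted p = 0.025). YY1 had -0.10 ± 0.05 (adjusted p = 0.23) and ESRRA -0.25 ± 0.20 (adjusted p = 0.44). NRF1 had 0.16 ± 0.08 and GABPA 0.10 ± 0.07 (adjusted p = 0.21 and 0.40), and PPARGC1A, at medians of 39.1 and 31.1 normalized counts, 0.15 ± 0.46.

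Some markers of other cell types were lower in RES, read here against the 5.85% of all genes called lower. Of 5 endothelial markers tested, 0 had a log2 fold change above 0 and CDH5 and EMCN were called lower. Their summed normalized counts ranged from 1077 to 2301 in FF (median 1557) and from 747 to 2279 in RES (median 1065). Of 8 smooth muscle and pericyte markers, RGS5 and PDGFRB were called lower, while ACTA2 (-0.01), TAGLN (-0.02) and DES (-0.09) lay near 0, MYH11 was at -0.82 (adjusted p = 0.16), CNN1 at -0.32 and CSPG4 at 0.20. The sum ranged from 2807 to 8182 in FF (median 4430.5) and from 1892 to 7955 in RES (median 3137). CYP11A1 of 7 theca markers and HBB of 2 erythroid markers were called lower. The theca sum ranged from 2439 to 13666 in FF and from 1151 to 12688 in RES, and the erythroid sum from 35.5 to 1045 and from 9.63 to 147. Of 3 immune and 2 oocyte markers tested, 0 were called by edgeR or DESeq2, also at an unadjusted p under 0.05 in edgeR. The summed granulosa markers ranged from 73058 to 123919 in FF and from 78690 to 151573 in RES, with VCAN the most abundant (medians 48752 and 54146). AMH was near 0, with medians of 3.85 and 5.59, and HSD17B1 was called higher. FOXL2 was not analysed here. These marker differences were found between the same groups as the higher respiratory genes. Their relation to the members across sows and their part in the result were not tested.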

How the data were processed

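Per the labels and the methods, the authors cleaned paired reads with SOAPnuke, aligned them with HISAT2 2.2.1 to Sscrofa11.1, removed PCR copies with UMI-tools 1.1.4 and deposited raw counts per Ensembl 110 gene from featureCounts 1.6.2. SAMtools 1.16.1 is also named. No strand option was set, so reads of overlapping genes on opposite strands cannot be told apart. Totals of 12299220 to 18120922 counts per library set the precision.

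Of 35670 identifiers, 11384 had a symbol and a mean count of at least 5 (38 small RNA symbols left out). They were tested together with edgeR 4.0.16 (TMM, quasi-likelihood, R 4.3.3) with Benjamini-Hochberg adjustment. Fold changes are log2, RES minus FF; SE is the fold change over the root of F. Normalized counts are counts divided by DESeq2 1.42.0 size factors. The scripts were tested on simulated data. The members and lists were chosen with earlier results of these data known. Named members are the 4 smallest and the largest p in each complex and class, paralog sets and ATP5IF1; ranges are given for those the results turn on. Alternatives were other normalizations, filters and tools (with limma 3.58.1 voom), covariates, quality groups, a replicate block and leaving out each sow. Quality values came from the study's supplement, where the row of FF sow 10 was uncertain. Promoters and exon lengths are from RefSeq.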

Additional observations from a re-analysis of the deposited data

How the results depend on the processing

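The number of called members stayed within a factor of 1.5 of 9 under DESeq2's Wald test, DESeq2 or upper-quartile factors in edgeR (the latter chosen after the data were seen), other filters, and read quality group or RIN as covariates. It was 8 with RIN, which lost ATP5MC2, and 8 with no count filter. ATP5MC2 was called in 9 of the 14 settings other than leaving out a sow. With GC percent of reads as a covariate, 15 members were called (2 in complex III, 7 in complex V, 10 structural), among 1672 genes in all. With voom and sample quality weights, 19 members were called, 1 of them lower (2 in complex III, 10 in complex IV, 7 in complex V, 13 structural), among 3193 genes in all. With all identifiers tested, 2 were called in complex III. In the upper read quality group 4 members were called (0 in complex V, 1 structural), and in the lower group 0 in every complex and class, among 1 gene in all. With FF sow 10 also left out of the lower group (chosen after the data were seen), 0 were called in every complex and class and 0 of all genes. The upper group called 2023 of all genes, more than the 1610 with all sows. The cause was not tested.

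Leaving out each sow in turn gave 1182 to 2350 calls over all genes, against 1610. It gave 5 to 16 members, 1 to 2 in complex III, 3 to 8 in complex IV, 1 to 6 in complex V, 1 to 11 structural and 4 to 6 assembly. Over all members the lowest count came without RES sow 3 and the highest without RES sow 7. Without FF sow 10, 7 complex IV members were called.

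Sow numbers name separate animals. With a replicate block on the number, 7 members were called, all among the 9 (1 in complex III, 3 in complex IV, 3 in complex V, 4 structural, 3 assembly), and 1086 of all genes. Deviations of same-numbered sows correlated over 0.1 in 1 of 13 pairs, and 0 of 13 FF sows correlated best with their own number.

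Over the 699 member values under other settings, 629 kept direction and side, 29 lost the call, 22 gained one and 19 reversed. All reversals were of uncalled members. In the upper group these were UQCC5 (-0.11), UQCRQ (-0.13), COX16 (-0.042), COX7A2L (-0.059), COX6C (-0.045), COX6A2 (-0.00085) and ATP5IF1 (-0.16). In the lower group they were UQCC6 (0.021), UQCRC1 (-0.026), COX19 (0.10), COX18 (0.053) and ATP5F1D (-0.0052). With FF sow 10 also left out there, they were UQCRC1 (-0.062), UQCR10 (-0.032), COX19 (0.12), COX18 (0.055) and ATP5F1D (-0.069). COX18 was 0.025 with all identifiers, and COX6A2 -0.0030 with voom. Leaving out sows moved COX18 between -0.047 and 0.018 and ATP5IF1 between -0.00023 and 0.13.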
